A study of Mus musculus with 12 samples.

Results

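In pancreatic islets of mice that have the prolactin receptor, 1167 genes were higher and 437 lower on pregnancy day 9.5 (P9.5) than in non-pregnant (NP) mice. The comparison takes all 3 arrays of Prlr+/+ P9.5 islets and all 3 arrays of Prlr+/+ NP islets, 6 of the 12 arrays of the series, and covers 19938 named genes. Prlr+/+ mice are the wild-type counterparts of a Prlr knockout line, and by the labels and the study's paper all groups are adult mice of the 129Sv background. The other 6 arrays are Prlr-/- islets, which lack the receptor in every tissue, 3 from NP and 3 from P9.5 mice. A progesterone pellet that sustains pregnancy is described for the pregnant Prlr-/- mice alone. The labels call the arrays biological replicates and do not say how many animals each one holds. Islets were isolated with collagenase and their RNA was hybridised as a bulk sample, so that fewer cells of a type and less RNA per cell cannot be told apart.

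Islets hold the insulin-producing beta cells and smaller numbers of alpha, delta and other endocrine cells. In pregnancy the mother becomes less sensitive to insulin, and her beta cells secrete more insulin and divide. Prolactin from the pituitary and placental lactogens bind the prolactin receptor, which activates the kinase JAK2 and the transcription factors STAT5A and STAT5B. These enter the nucleus and switch on their targets, among them the SOCS family inhibitors that limit the same signal.

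Values are log2 expression from robust multichip analysis, so a difference of 1 is a doubling, and 3 values given in a row are those of replicates 1, 2 and 3. A gene was called higher or lower when the fold change was at least 1.5 and the Benjamini-Hochberg adjusted p from limma was under 0.05 over all 35511 probe sets. "Rose" and "fell" are used for called genes. An exact permutation test of 3 arrays against 3 cannot go below p = 0.10, and with 3 arrays a group the precision of each value is limited. Over all probe sets the correlation was 0.979 to 0.987 within a stage (6 pairs of arrays) and 0.952 to 0.968 between NP and P9.5 (9 pairs).

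The islet hormones were bright on every array, as far as they have a named probe set. Ins2, which encodes insulin, was at 10.6, 10.8 and 11 in NP and 10.9, 10.7 and 10.8 in P9.5 islets. Gcg, the glucagon gene of alpha cells, was at 13.4 to 13.7 and 13.8 on all P9.5 arrays, and Sst, the somatostatin gene of delta cells, was at 13.4 to 13.6 and 13.1 to 13.2. Ppy, the pancreatic polypeptide gene, was at 12, 12.8 and 12.3 in NP and 12.6, 11.2 and 11.7 in P9.5 islets (log2 fold change -0.53). No hormone gene was called. Prlr itself has no probe set with its name here and no level is given.

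One array stood apart. Xist, the RNA that coats the silent X chromosome of female cells, was at 3.8 in Prlr+/+ P9.5 replicate 2 and at 10.0 to 10.7 on the other 5 Prlr+/+ arrays. The Y-linked genes Eif2s3y, Uty and Kdm5d were at 3.4, 3.7 and 4.2 on that array and at 3.2 to 4.6 on the other 5. Without it, 976 genes were higher and 451 lower, and 930 of the 1167 and 370 of the 437 calls were kept. What sets this array apart was not tested. Calls lost without it are named beside the results below. Of 150 called genes named in the text, 102 kept their call when each of the 6 arrays was left out in turn. The other 48 lost it without at least 1 array, and apart from Olfr767 they had a change of at most 0.90 on the log2 scale.

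Markers of other pancreatic cells are given first. Markers of acinar cells, which make digestive enzymes, had a mean level of 9.17, 9.71 and 9.32 in NP and 8.83, 8.57 and 9.63 in P9.5 islets. Of 29 measured acinar markers 25 had a log2 fold change below 0, with a median of -0.47, but limma called 0 lower, also at an unadjusted p under 0.05. The defining enzymes were bright in both stages: Ctrb1, a chymotrypsinogen, was at 12.5 to 12.8 and 11.7 to 12.6. Bhlha15, a transcription factor of secretory cells that is also on the beta cell list, was the only member that rose. Markers of stromal cells and pericytes had a median of -0.32, with 17 of 20 below 0, and a mean level of 6.53 to 6.87 in NP and 6.28 to 6.60 in P9.5 islets. The part of these cells in the results was not tested.

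Genes that rose made up 5.85% of all genes tested and genes that fell 2.19%. At an unadjusted p under 0.05 from limma, 3704 of the 19938 genes were higher and 3903 lower. The median log2 fold change over all genes was -0.07. Of the genes that rose, 1009 rose by 1.5 to 2-fold, 148 by 2 to 4-fold and 10 by 4-fold or more. Of those that fell, 412 fell by 1.5 to 2-fold, 24 by 2 to 4-fold and 1 by more. In 1568 of these called genes the 3 P9.5 values did not overlap the 3 NP values, which was also true of 34.8% of all genes. Calls were rarer among dim genes: 0.542% of 4796 genes with a mean level under 5 were higher, against 13.4% of 902 genes at 9 to 11. Fitted with each array centred on its median, 1542 genes were higher and 256 lower, so the share of higher among all calls was 85.8% in place of 72.8%.

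**Figure D1:**
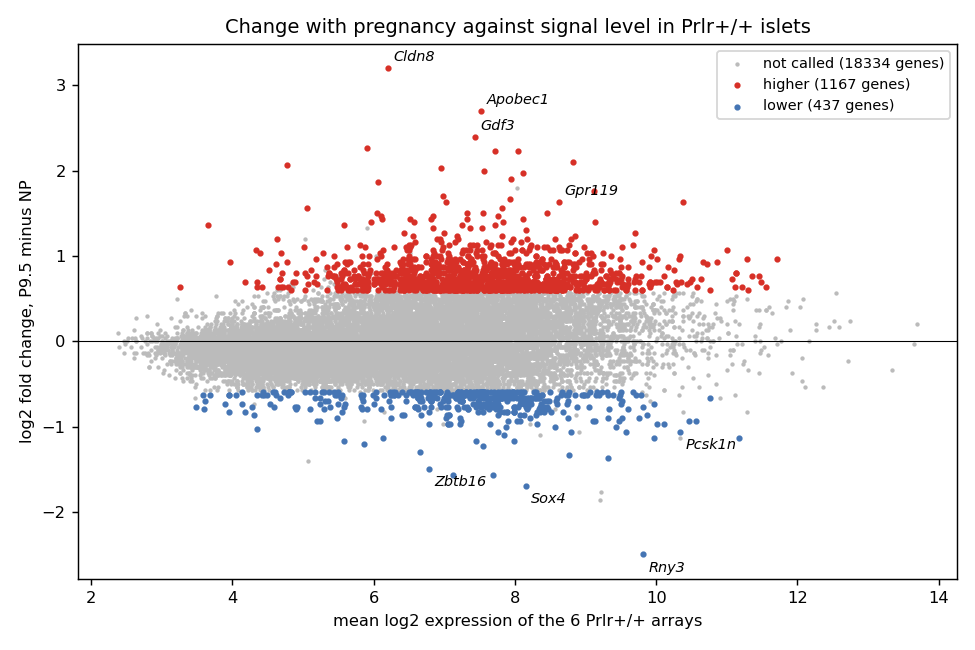
Log2 fold change from NP to P9.5 (vertical axis) against the mean log2 expression of the 6 Prlr+/+ arrays (horizontal axis), 1 point per gene. The 1167 genes that rose are red, the 437 that fell are blue and the 18334 not called are grey; Cldn8 lies at the top and Rny3 at the bottom.

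The largest increase was that of Cldn8, which encodes the tight junction protein claudin 8. It was at 4.5, 4.6 and 4.7 in NP and 7.9, 6.9 and 8.6 in P9.5 islets. The P9.5 arrays spread over 1.7 units, and the lowest of them still lay above every NP array (log2 fold change 3.20 with a standard error of 0.305, limma adjusted p = 0.000184). The NP values were close to those of the Y-linked genes above, as were those of Zfp931 below. The files hold no detection calls, so for these genes the fold change may be a lower bound.

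Apobec1, the enzyme that edits cytidine in apolipoprotein B mRNA, was at 6.5, 6.0 and 6.0 in NP and 8.8, 9.1 and 8.7 in P9.5 islets. Gdf3, a secreted TGF-beta family factor, was at 6.6, 5.9 and 6.2 in NP and 8.8, 8.4 and 8.7 in P9.5 islets. All P9.5 values of both genes lay at least 1.8 above the NP values. The log2 fold changes were 2.70 for Apobec1 (adjusted p = 1.26e-05 from limma) and 2.40 for Gdf3 (adjusted p = 6.96e-05).

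Fmo1 and Fmo4, flavin-containing monooxygenases that oxidise nitrogen and sulphur compounds, rose together. Fmo1 was at 7.3, 6.7 and 6.8 in NP and 9.3, 9.2 and 9.0 in P9.5 islets. Fmo4 was at 5.9, 5.7 and 6.2 in NP and 8.1, 8.1 and 7.7 in P9.5 islets. The stages did not overlap for either gene, with log2 fold changes of 2.23 and 2.03 (adjusted p = 0.000144 and 0.000121 from limma).

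Slc40a1 encodes ferroportin, which exports iron from cells. It was at 8.3, 7.7 and 7.3 in NP and 9.9, 10.0 and 9.7 in P9.5 islets, and the NP arrays varied more than the P9.5 arrays (log2 fold change 2.10, adjusted p = 0.000387 from limma). Rbmx2, an RNA-binding protein of the spliceosome, was at 8.9 on all 3 P9.5 arrays and at 7.1, 7.0 and 6.9 in NP islets. Fgl2, a fibrinogen-like protein, rose by 2.00 on the log2 scale and the zinc finger gene Zfp931 by 2.07. Tph2, Car8 and Socs2 complete the 12 largest increases, at 2.27, 2.23 and 1.97.

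**Figure D2:**
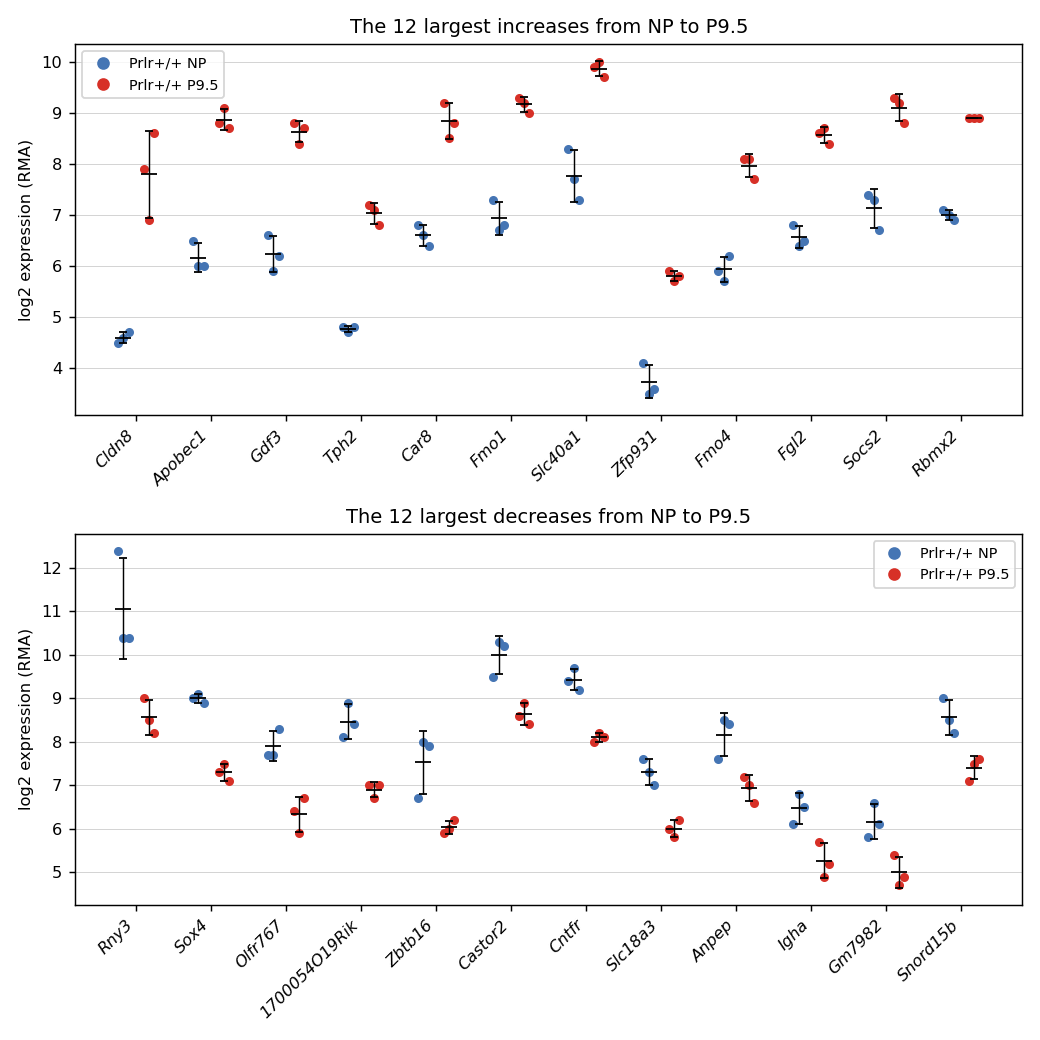
Log2 expression (vertical axis) of the genes with the 12 largest increases (upper panel) and the 12 largest decreases (lower panel) in the 3 Prlr+/+ NP arrays (blue) and the 3 Prlr+/+ P9.5 arrays (red), with the mean and SD as black marks. The stages do not overlap for any of these genes, a condition of their choice, and Rny3 and Zbtb16 have 1 NP array far from the other two.

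The largest decrease was that of Rny3, a small non-coding Y RNA. It was at 12.4, 10.4 and 10.4 in NP and 9.0, 8.5 and 8.2 in P9.5 islets. NP replicate 1 lay 2.0 above the other NP arrays, and the standard error was accordingly large (log2 fold change -2.50 with a standard error of 0.448, limma adjusted p = 0.00291). Sox4, a transcription factor of endocrine development, was at 9.0, 9.1 and 8.9 in NP and 7.3, 7.5 and 7.1 in P9.5 islets. It fell by 1.7 on the log2 scale with little spread in either stage (adjusted p = 0.00071 from limma).

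Cntfr, the receptor subunit for ciliary neurotrophic factor, was at 9.4, 9.7 and 9.2 in NP and 8.0, 8.2 and 8.1 in P9.5 islets (log2 fold change -1.33, adjusted p = 0.000163 from limma). Slc18a3, the vesicular transporter of acetylcholine, was at 7.6, 7.3 and 7.0 in NP and 6.0, 5.8 and 6.2 in P9.5 islets (log2 fold change -1.30). Both genes kept a gap of at least 0.8 between the stages.

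Anpep, a membrane aminopeptidase, was at 7.6, 8.5 and 8.4 in NP and 7.2, 7.0 and 6.6 in P9.5 islets (log2 fold change -1.23, adjusted p = 0.00251). Castor2, a partner of the arginine sensor CASTOR1 in the mTORC1 pathway, fell by 1.37, while another probe set of the gene had a log2 fold change of -0.40 and was not called. Igha, the constant region of immunoglobulin A, fell by 1.20, the small nucleolar RNA gene Snord15b by 1.17 and Gm7982, a gene of unassigned function, also by 1.17. Olfr767, an olfactory receptor gene, and 1700054O19Rik each fell by 1.57, and the call of Olfr767 was lost without NP replicate 3 or P9.5 replicate 2.

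Among 36 measured genes of prolactin receptor signalling, 5 rose, 3 fell and 28 did not pass, with a median log2 fold change of -0.05. Members of the SOCS family were among the genes that rose and among those that fell. Socs2, a SOCS family inhibitor of cytokine receptors, was at 7.4, 7.3 and 6.7 in NP and 9.3, 9.2 and 8.8 in P9.5 islets (log2 fold change 1.97, adjusted p = 0.000163 from limma), and its other probe set rose by 1.10. Cish, another inhibitor of this family, was at 7.1, 6.4 and 7.6 in NP and 8.6, 8.7 and 8.5 in P9.5 islets. Its NP arrays spread over 1.2 units and its P9.5 arrays over 0.2 (log2 fold change 1.57, adjusted p = 0.0102).

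Myc, a transcription factor of cell growth, was at 6.3, 6.1 and 6.6 in NP and 7.2, 7.5 and 7.9 in P9.5 islets. Tnfrsf11b, the decoy receptor osteoprotegerin, was at 6.1, 6.2 and 6.0 in NP and 8.1, 7.4 and 7.1 in P9.5 islets. The stages were separate for both, with log2 fold changes of 1.20 and 1.43. Socs4 rose by 0.67, a call that was lost without NP replicate 2 or 3 or P9.5 replicate 1 or 2.

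Bcl6, a transcriptional repressor that binds sites like those of STAT5, went the other way. It was at 6.5, 6.8 and 6.8 in NP and 5.4, 5.8 and 5.5 in P9.5 islets (log2 fold change -1.13, adjusted p = 0.00966 from limma). Socs7 fell by 0.70 and the survival kinase Pim3 by 0.60, and the call of Pim3 was lost without NP replicate 3 or P9.5 replicate 2. The signal carriers themselves did not pass: Jak2 had a log2 fold change of 0.07, Stat5a of -0.20 and Stat5b of -0.33.

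STAT5 dimers bind the palindrome TTCNNNGAA. RefSeq promoter windows of build GRCm38.p6, which run from 250 bases before to 50 bases after a transcription start, were searched for it on both strands, a search that finds the same places on either strand since the motif is its own reverse complement. Of 26 genes that are among the 12 largest increases, in the islet pregnancy signature or called members of the prolactin list, 14 had a window, and 4 of these held the motif. Counted by window, 5 of 16 held it. Genes whose windows hold no copy are not shown. The windows below were chosen because they hold the motif, which is in capitals, with the strand of the gene read 5′ to 3′. They lie at chr9:107296409-107296708 (Cish, plus strand), chr2:118861744-118862043 (Ivd, plus strand), chr5:21372423-21372722 (Fgl2, plus strand) and chr16:23981234-23981533 (Bcl6, minus strand).
Cish: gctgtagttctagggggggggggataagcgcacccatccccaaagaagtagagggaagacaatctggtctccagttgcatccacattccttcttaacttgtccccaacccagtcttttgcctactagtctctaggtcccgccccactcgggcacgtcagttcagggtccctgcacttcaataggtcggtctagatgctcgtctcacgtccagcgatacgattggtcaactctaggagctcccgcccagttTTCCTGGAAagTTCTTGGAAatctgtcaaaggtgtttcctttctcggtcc
Ivd: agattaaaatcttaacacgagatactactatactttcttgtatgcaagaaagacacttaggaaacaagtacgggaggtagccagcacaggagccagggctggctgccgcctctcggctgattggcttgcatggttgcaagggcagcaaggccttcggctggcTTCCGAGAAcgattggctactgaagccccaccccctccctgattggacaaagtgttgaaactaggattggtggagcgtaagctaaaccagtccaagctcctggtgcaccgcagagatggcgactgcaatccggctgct
Fgl2: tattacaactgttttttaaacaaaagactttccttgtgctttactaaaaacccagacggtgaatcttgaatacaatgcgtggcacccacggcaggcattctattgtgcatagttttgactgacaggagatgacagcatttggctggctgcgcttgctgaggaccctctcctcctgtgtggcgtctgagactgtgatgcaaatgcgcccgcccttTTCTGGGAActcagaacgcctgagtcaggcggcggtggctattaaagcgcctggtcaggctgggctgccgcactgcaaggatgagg
Bcl6: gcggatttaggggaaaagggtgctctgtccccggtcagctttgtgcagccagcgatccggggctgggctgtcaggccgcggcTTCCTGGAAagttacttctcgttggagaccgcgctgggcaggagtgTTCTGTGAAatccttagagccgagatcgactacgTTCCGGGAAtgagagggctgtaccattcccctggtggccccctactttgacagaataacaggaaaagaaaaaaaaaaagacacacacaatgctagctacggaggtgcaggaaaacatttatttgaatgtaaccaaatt
In Cish the first copy begins at the start base itself and the second 11 bases after it. The Ivd copy begins 88 bases before the start, that of Fgl2 36 before, and those of Bcl6 168, 122 and 88 before. A further window of Bcl6 holds 1 copy. Over all tested genes with a window, 7.68% of 19116 windows held the motif, against 8.53% of 1137 windows of genes that rose and 4.44% of 428 windows of genes that fell. A match is a description of the letters alone.

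Genes that build ribosomes had the highest share of called members among the lists of over 12 genes. Of 38 nucleolar genes of ribosome biogenesis 19 rose, 0 fell and 19 did not pass, and 37 had a log2 fold change above 0, with a median of 0.58. Wdr75, a factor of ribosomal RNA transcription and processing, was at 6.9, 6.7 and 6.8 in NP and 8.1, 8.0 and 7.7 in P9.5 islets. Tsr1, which matures the small ribosomal subunit, was at 8.5, 8.3 and 8.5 in NP and 9.6, 9.7 and 9.3 in P9.5 islets. All P9.5 values of both lay at least 0.8 above the NP values (log2 fold changes 1.13 and 1.10, adjusted p = 0.000529 and 0.000457 from limma). Nop56 and Nop58, core proteins of the particles that methylate ribosomal RNA, rose by 1.07 each, and Gnl3, the nucleolar GTPase nucleostemin, and Brix1 by 1.03 each. Without P9.5 replicate 2, 12 of the 38 rose.

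The proteins of the finished ribosome are a separate list. Of 53 cytosolic ribosomal protein genes 3 rose (5.66%) and 50 did not pass, with a median of 0.13. The 3 were Rpl7 at 0.93, Rps3a1 at 0.70 and Rps6 at 0.63. Many genes of this family have near-identical copies elsewhere in the genome, so these values are uncertain.

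Of 21 tRNA synthetase genes and their partners, 9 rose, 0 fell and 12 did not pass, with a median of 0.47. Tars, which charges the threonine tRNA, was at 7.5, 7.6 and 7.7 in NP and 8.6, 8.5 and 8.4 in P9.5 islets. Lars and Rars, for leucine and arginine, rose by 0.80 each. With quantile normalization 5 of the 21 rose. Of 31 genes of amino acid and one-carbon supply under the transcription factor ATF4, limma called 0, with a median of -0.10. Among them 5 were higher and 10 lower at an unadjusted p under 0.05, beside 3704 higher and 3903 lower of all 19938 genes. Atf4 itself had a log2 fold change of 0.50.

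Of 46 genes of the translocon, the channel through which new proteins enter the endoplasmic reticulum (ER), and of early transport, 15 rose, 0 fell and 31 did not pass, with 43 above 0 and a median of 0.47. Srp9, a protein of the signal recognition particle that brings ribosomes to the ER, was at 8.0, 7.9 and 7.7 in NP and 9.0, 8.6 and 8.8 in P9.5 islets. A second probe set of Srp9 had a log2 fold change of 0.57 and was not called. Stt3a, the catalytic subunit of N-glycosylation, was at 10.6, 10.7 and 10.9 in NP and 11.5, 11.6 and 11.5 in P9.5 islets. Ssr3 rose by 0.83, Sec11c, a signal peptidase subunit, by 0.77 and Sar1a, which starts the vesicles that leave the ER, by 0.77.

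Of 43 genes of ER folding and the unfolded protein response 10 rose, 0 fell and 33 did not pass, with a median of 0.40. Hspa5, the ER chaperone BiP, was at 11, 11.1 and 11.1 in NP and 11.9, 11.9 and 11.7 in P9.5 islets (log2 fold change 0.77, adjusted p = 0.00147 from limma). Pdia6, which forms disulphide bonds, was at 10.6, 10.7 and 10.9 in NP and 11.6, 11.6 and 11.4 in P9.5 islets. Fkbp14 rose by 0.77, Sdf2l1 by 0.73 and the stress sensor Atf6 by 0.67. Xbp1, the transcription factor of the IRE1 branch, had a log2 fold change of 0.40, and Ddit3, the cell death factor CHOP, of 0.27. With quantile normalization 4 of the 43 rose.

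Proteasome genes rose too: 12 of 37 subunits were higher, 0 were lower and 25 did not pass, with 35 above 0 and a median of 0.40. Psmd6, of the regulatory lid, was at 8.4, 8.3 and 8.3 in NP and 9.5, 9.3 and 9.3 in P9.5 islets. Psmd14, the lid enzyme that removes ubiquitin, was at 7.4, 7.3 and 7.1 in NP and 8.3, 8.2 and 8.3 in P9.5 islets. The gap between the stages was 0.8 or more for both. The other 10 rose by 0.60 to 0.80. Of 29 heat shock genes 4 rose, led by the cochaperone Chordc1 at 1.10 and the mitochondrial Hspe1 at 0.87, with a median of 0.27 and with 2 called without NP replicate 3 or P9.5 replicate 1 and 7 without NP replicate 1.

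**Figure D3:**
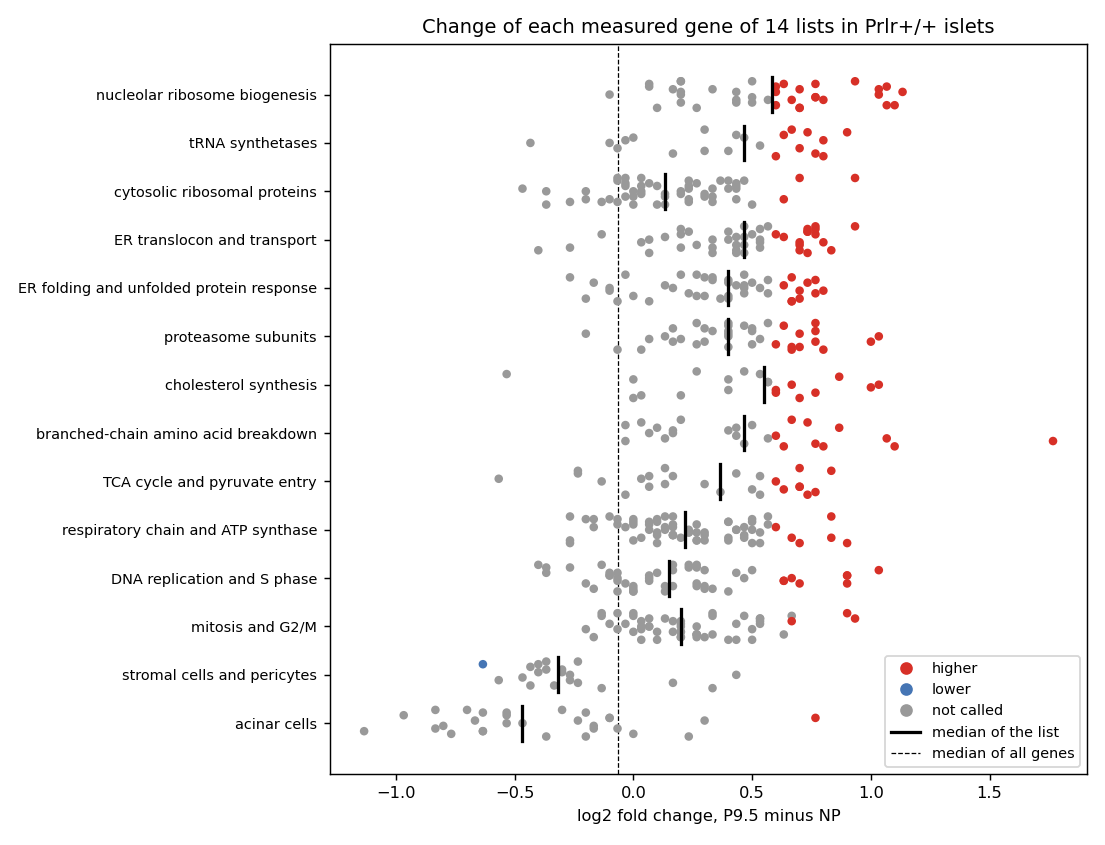
Log2 fold change from NP to P9.5 (horizontal axis) of every measured gene of 14 lists (rows), with genes that rose in red, genes that fell in blue and the others in grey; black bars mark list medians and the dashed line the median of all genes at -0.07. Medians run from 0.58 in nucleolar genes to -0.47 in acinar markers, and the far right point is Ivd in branched-chain amino acid breakdown.

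In metabolism, sterol synthesis and mitochondrial fuel use held most of the increases. Of 20 cholesterol synthesis genes 8 rose, 0 fell and 12 did not pass, with a median of 0.55. Idi1, which makes the isoprene unit of the pathway, was at 6.5, 6.2 and 6.3 in NP and 7.5, 7.5 and 7.1 in P9.5 islets. Msmo1, a sterol demethylating enzyme, was at 9.6, 9.3 and 9.4 in NP and 10.6, 10.5 and 10.2 in P9.5 islets. Both kept the stages apart by 0.6. Lss, Sqle, Cyp51, Stard4, Hmgcs1 and Ebp rose by 0.87 to 0.60. The call of Ebp was lost without NP replicate 2 or 3 or P9.5 replicate 1 or 2. That of Hmgcs1 was lost without NP replicate 2 or 3 or P9.5 replicate 1. In contrast 1 of 21 fatty acid synthesis genes rose (4.76%), Acss2 at 0.63, and the median of that list was 0.00.

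Of 25 genes that break down leucine, isoleucine and valine 10 rose, 0 fell and 15 did not pass, with a median of 0.47. Ivd, the isovaleryl-CoA dehydrogenase of leucine breakdown, was at 8.5, 8.0 and 8.2 in NP and 10.1, 10.0 and 9.9 in P9.5 islets and rose by 1.77 on the log2 scale (adjusted p = 3.17e-05 from limma). Dld, a subunit shared by the branched-chain and pyruvate dehydrogenase complexes, was at 8.0, 7.8 and 7.8 in NP and 9.1, 8.9 and 8.9 in P9.5 islets. Ppm1k, the phosphatase that activates the branched-chain complex, was at 6.9, 6.7 and 6.9 in NP and 7.7, 8.0 and 8.0 in P9.5 islets. No P9.5 value of these 3 genes reached down to the NP range. Bckdhb and Dbt, further subunits of that complex, rose by 0.77 and 0.60, and Acadsb, of isoleucine breakdown, by 0.87. The call of Dbt was lost without NP replicate 2 or 3 or P9.5 replicate 2.

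Of 25 genes of the TCA cycle and pyruvate entry 8 rose and 0 fell, with a median of 0.37. Pdhb, a subunit of pyruvate dehydrogenase, was at 7.6, 7.4 and 7.5 in NP and 8.4, 8.3 and 8.3 in P9.5 islets. Idh3a, the isocitrate dehydrogenase subunit, rose by 0.77, the malate dehydrogenase Mdh1 by 0.73 and the pyruvate carrier Mpc1 by 0.70. The respiratory chain and ATP synthase had 6 of 66 genes higher (9.09%), 0 lower and a median of 0.22, and 12 were higher without NP replicate 1. The 6 included Cox7b at 0.90, Uqcrb at 0.83 and the electron carrier Cycs at 0.83. One other probe set of Cycs rose by 0.93 and another had a log2 fold change of 0.10.

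Fatty acid oxidation had 4 of 31 genes higher and 0 lower, with a median of 0.13. Ehhadh, a peroxisomal enzyme, rose by 1.43, Hadhb, of the mitochondrial trifunctional protein, by 1.03, and the electron transfer genes Etfdh and Etfa by 0.63 and 0.60. With quantile normalization 2 of the 31 rose. Of 17 glycolysis genes 1 rose (5.88%), the phosphoglycerate kinase Pgk1 at 0.77, and 0 fell.

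Genes of cell division were described as 2 lists. Of 50 genes of DNA replication and S phase 8 rose, 0 fell and 42 did not pass, with a median of 0.15. Pcna, the sliding clamp of DNA polymerases, was at 7.4, 7.3 and 6.9 in NP and 8.2, 8.3 and 8.2 in P9.5 islets (log2 fold change 1.03, adjusted p = 0.000775 from limma). Prim1, the primase, was at 6.0, 5.8 and 6.0 in NP and 6.9, 6.9 and 6.7 in P9.5 islets. Fen1 and Tipin rose by 0.90 each and the S phase cyclin Ccne2 by 0.70. Without P9.5 replicate 2, 6 rose, and Pola1 and Rrm1 were not among them, and without NP replicate 3, 5 rose.

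Of 54 genes of mitosis 3 rose (5.56%), which were Mad2l1 at 0.93, Spc25 at 0.90 and Smc4 at 0.67, and 0 fell. The median was 0.20, with 43 above 0. At an unadjusted p under 0.05, 12 were higher and 0 lower, beside 3704 higher and 3903 lower of all 19938 genes. Without P9.5 replicate 2 the count was 1, as Spc25 and Smc4 were lost, without P9.5 replicate 1 it was also 1, and with each array centred it was 6. The call of Smc4 was also lost without NP replicate 2 or 3 or P9.5 replicate 1 or 3. Mki67, the common marker of dividing cells, was at 5.2, 5.3 and 5.0 in NP and 5.4, 5.7 and 5.9 in P9.5 islets. Top2a, a topoisomerase of dividing cells, was at 5.3, 5.5 and 5.2 and at 5.8, 5.9 and 6.2. The stages did not overlap in either, but the log2 fold changes of 0.50 and 0.63 did not pass (adjusted p = 0.174 and 0.161 from limma). Of the regulators that are known for prolactin-driven growth, Ccnd2, a G1 cyclin, had a log2 fold change of -0.20, Foxm1 of -0.20, the inhibitor Cdkn1b of -0.07 and Men1 of 0.00, and none passed.

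Gadd45a, a growth arrest and DNA damage gene, stood out among genes of no list and was chosen after its values were seen. It was at 7.1, 7.0 and 7.2 in NP and 9.2, 8.6 and 8.5 in P9.5 islets (log2 fold change 1.67, adjusted p = 0.000214 from limma). Of 21 Bcl2 family and survival genes 1 rose (4.76%), Birc2 at 0.63, and 0 fell. The call of Birc2 was lost without NP replicate 1 or P9.5 replicate 2, and its other probe set, at 0.50, was not called. Of 32 immediate early genes 2 rose (6.25%), Myc and Jun. The call of Jun was lost without NP replicate 2 or 3 or P9.5 replicate 1 or 2.

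**Figure D4:**
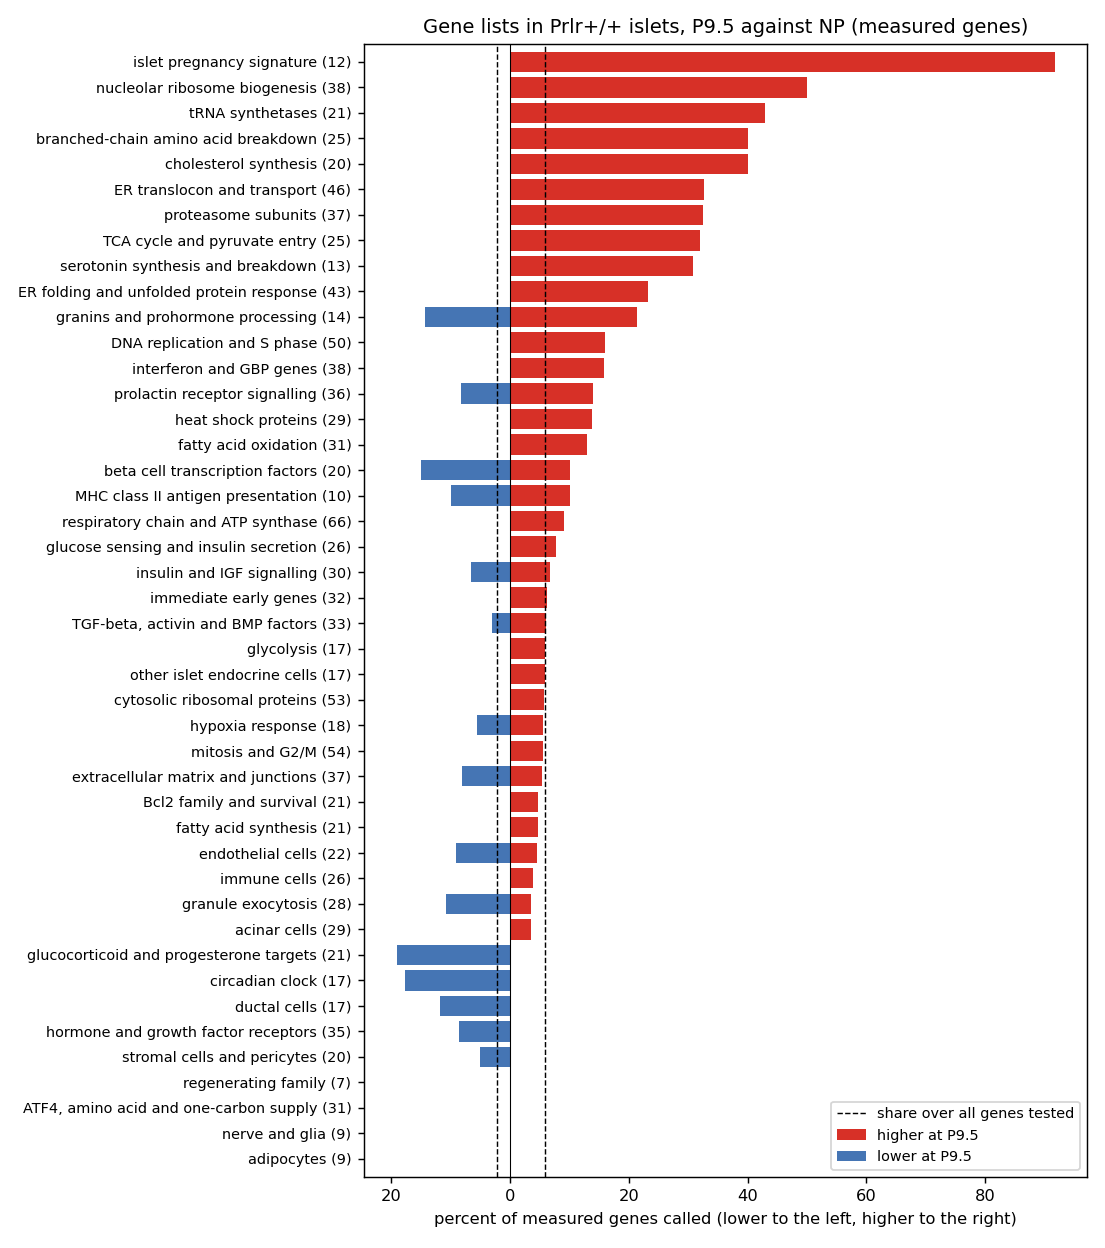
Percent of the measured genes of each list (vertical axis, number measured in parentheses) that rose (red, to the right) or fell (blue, to the left) from NP to P9.5, with dashed lines at 5.85% and 2.19%, the shares over all genes. Among nucleolar genes 50% rose, while glucocorticoid, clock, receptor, ductal and stromal genes had calls to the left alone.

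Members of the list of beta cell transcription factors changed in both directions, and Bhlha15, 1 of those that rose, is also on the acinar list. Of 20 transcription factors of beta cells 2 rose, 3 fell and 15 did not pass. Mafa, an activator of the insulin gene, was at 8.8, 8.6 and 8.6 in NP and 8.1, 8.2 and 7.7 in P9.5 islets. Nkx6-1, which keeps beta cell identity, was at 9.8, 9.9 and 9.9 in NP and 9.1, 9.3 and 9.0 in P9.5 islets. The stages stayed apart in both genes (log2 fold changes -0.67 and -0.73, adjusted p = 0.00938 and 0.00369 from limma). Nkx2-2 fell by 0.60, while Neurod1 rose by 0.63 and Bhlha15 by 0.77. The call of Neurod1 was lost without P9.5 replicate 2 and with quantile normalization, and that of Bhlha15 without P9.5 replicate 1. That of Nkx2-2 was lost without NP replicate 2 or 3 or P9.5 replicate 1, and that of Mafa without P9.5 replicate 3. Pdx1 had a log2 fold change of -0.07. With each array centred on its median 2 of the 20 fell, and with quantile normalization 5 did.

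Of 26 genes of glucose sensing and insulin secretion 2 rose (7.69%, beside 5.85% of all genes) and 0 fell, with a median of -0.05. Without NP replicate 1, 3 were lower, and without NP replicate 2 or 3 or P9.5 replicate 1 or 2, 1 was higher. Gpr119, a lipid receptor that raises cAMP and insulin secretion, was at 8.2, 7.6 and 7.6 in NP and 9.5, 9.4 and 9.4 in P9.5 islets (log2 fold change 1.63, adjusted p = 0.000266 from limma). Ucn3, a marker of mature beta cells, was at 10.4, 9.8 and 9.6 in NP and 10.5, 10.6 and 10.5 in P9.5 islets. The gap was 1.2 in Gpr119 and 0.1 in Ucn3, whose call was lost without P9.5 replicate 2. Slc2a2, the glucose transporter GLUT2, had a log2 fold change of 0.03.

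Genes of the secretory granule were divided. Of 14 granin and prohormone processing genes 3 rose and 2 fell. Pcsk1, the convertase that cleaves proinsulin, was at 10.9, 11.1 and 10.9 in NP and 11.8, 11.8 and 11.6 in P9.5 islets (log2 fold change 0.77, adjusted p = 0.000739). Pcsk1n, which encodes proSAAS, an inhibitor of that convertase, was at 11, 10.8 and 10.8 in NP and 9.8, 10.0 and 9.6 in P9.5 islets (log2 fold change -1.07, adjusted p = 0.000282 from limma). The enzyme was thus higher and its inhibitor lower on every P9.5 array than on any NP array. Ptprn, the granule membrane protein IA-2, was at 10.4, 10.8 and 10.6 and at 9.6, 9.7 and 9.6. Chgb, a granin, rose by 0.60 and the zinc transporter Slc30a5 by 0.63, and with quantile normalization 1 of the 14 rose. Chgb lost its call without NP replicate 1 or P9.5 replicate 1 or 3, and Slc30a5 without NP replicate 2.

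Of 28 exocytosis genes 1 rose, Syt4 at 0.70, and 3 fell, Syt7, Syt13 and Cplx1 at -0.63 each, with 24 not passing. Syt7 and Syt4 encode vesicle synaptotagmins. The decreases were not called with each array centred on its median or without NP replicate 2. Among 17 genes of other islet endocrine cells 1 rose (5.88%, beside 5.85% of all genes), Gria3 at 0.73, and 0 fell.

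**Figure D5:**
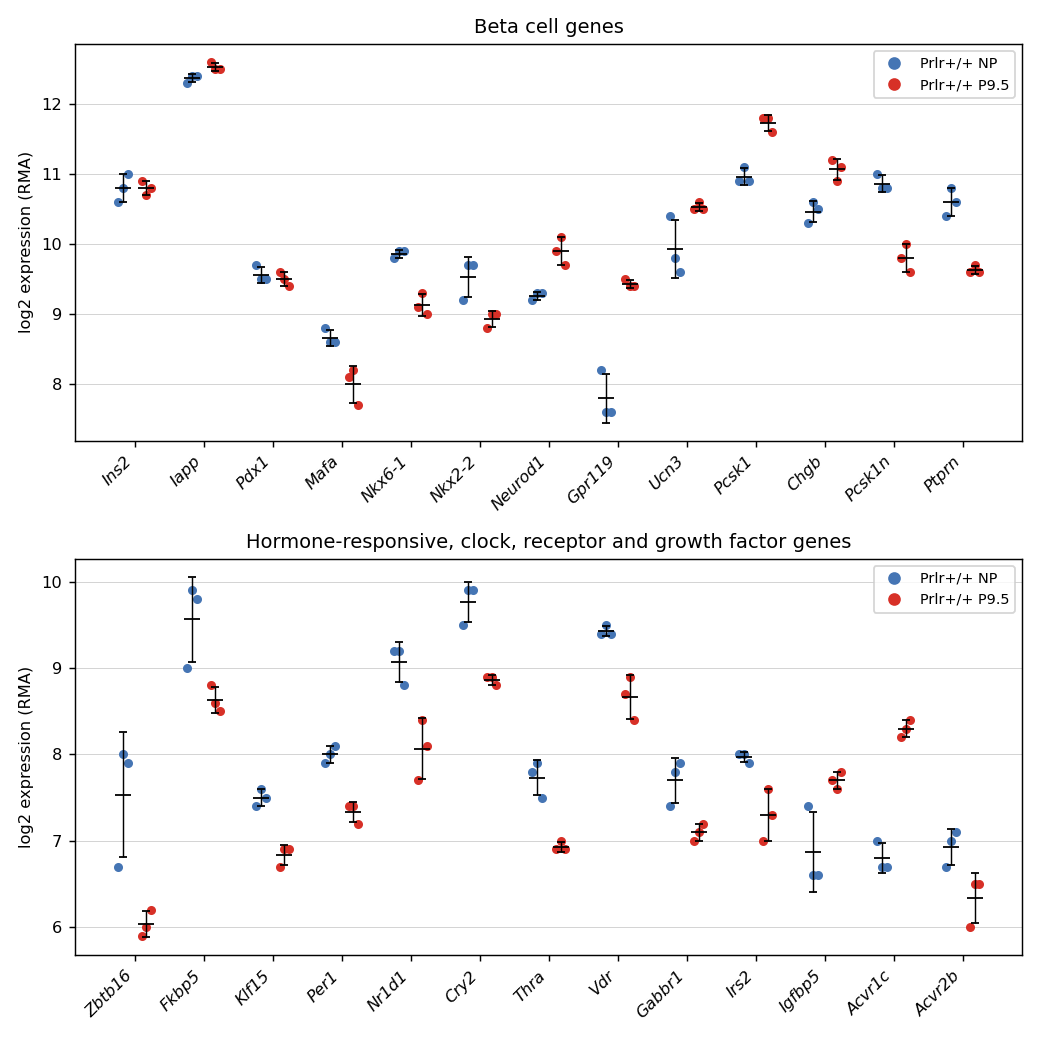
Log2 expression (vertical axis) of beta cell genes (upper panel) and of hormone-responsive, clock, receptor and growth factor genes (lower panel) in the 3 Prlr+/+ NP (blue) and 3 Prlr+/+ P9.5 arrays (red), with the mean and SD as black marks. Pcsk1 is higher and Pcsk1n lower at P9.5, and Zbtb16 and Fkbp5 are lower in NP replicate 1 than in the other NP arrays.

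Targets of glucocorticoid and progesterone receptors fell in 4 of 21 cases and rose in 0. Zbtb16, a transcription factor induced by both steroids, was at 6.7, 8.0 and 7.9 in NP and 5.9, 6.0 and 6.2 in P9.5 islets (log2 fold change -1.5, adjusted p = 0.00275 from limma). Fkbp5, a chaperone of the glucocorticoid receptor that this receptor induces, was at 9.0, 9.9 and 9.8 in NP and 8.8, 8.6 and 8.5 in P9.5 islets (log2 fold change -0.93, adjusted p = 0.0058). NP replicate 1 was the lowest NP array for both and still lay above the P9.5 arrays. Klf15 and Per1 fell by 0.67 each, and the median of the list was -0.20.

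Of 17 clock genes 3 fell and 0 rose, while 11 had a log2 fold change above 0 and the median was 0.13. Without NP replicate 1, 3 clock genes were called higher, and without P9.5 replicate 3 it was 2. Nr1d1, the repressor REV-ERB alpha, was at 9.2, 9.2 and 8.8 in NP and 7.7, 8.4 and 8.1 in P9.5 islets, and Cry2, a repressor of the same loop, was at 9.5, 9.9 and 9.9 and at 8.9, 8.9 and 8.8. The log2 fold changes were -1.0 and -0.90. The third was Per1. The time of day of islet isolation is not given in the sources used here.

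Of 35 receptors for hormones and growth factors 3 fell and 0 rose. Thra, the thyroid hormone receptor alpha, was at 7.8, 7.9 and 7.5 in NP and 6.9, 7.0 and 6.9 in P9.5 islets. Vdr, the vitamin D receptor, was at 9.4, 9.5 and 9.4 and at 8.7, 8.9 and 8.4. The GABA receptor gene Gabbr1 fell by 0.60. Without NP replicate 1, 5 receptors were lower. Of 30 insulin and IGF signalling genes 2 rose and 2 fell (6.67% each), beside 5.85% and 2.19% of all genes. Igfbp5, which binds IGFs, rose by 0.83 and Pik3r3 by 0.70. Irs2, the docking protein of the insulin receptor in beta cells, fell by 0.67 and Rptor by 0.63. The count of 2 lower became 4 without NP replicate 1 or P9.5 replicate 3 and 1 without NP replicate 2 or P9.5 replicate 1, and 5 with quantile normalization.

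In the TGF-beta family 2 of 33 genes rose (6.06%) and 1 fell (3.03%), beside 5.85% and 2.19% of all genes. Beside Gdf3, Acvr1c, the activin-type receptor ALK7, was at 7.0, 6.7 and 6.7 in NP and 8.2, 8.3 and 8.4 in P9.5 islets, a log2 fold change of 1.5 with no overlap (adjusted p = 9.28e-05 from limma). Acvr2b, a type II receptor of activins, fell by 0.60, a call that was lost without NP replicate 2, NP replicate 3 or P9.5 replicate 1.

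Of 37 genes of the matrix and junctions 2 rose (5.41%) and 3 fell (8.11%), beside 5.85% and 2.19% of all genes. Cldn8 and the matrix gene Matn2 rose, and Col4a1 and Col4a2, chains of basement membrane collagen, and Cldn11 fell. These 3 fell by 0.60 to 0.63 and were not called with each array centred on its median, and 1 of them was called without NP replicate 2 or 3 or P9.5 replicate 1 or 3. The markers of blood vessels moved beside them: the endothelial genes Plvap and Eng fell by 0.67 each, Nostrin rose by 0.70, and the median of 22 endothelial markers was -0.18. Sparc, a stromal matrix protein, fell by 0.63 and was the only 1 of 20 stromal markers called. Of 17 ductal markers 2 fell, Krt7 at -0.80 and Krt8 at -0.60. The calls of Nostrin and Krt8 were lost without P9.5 replicate 2, and Krt8 also without NP replicate 1, NP replicate 2 or P9.5 replicate 3. Endothelial genes called lower were 0 without NP replicate 2, 1 without P9.5 replicate 1 or 3 and 4 without P9.5 replicate 2. Stromal genes called lower were 0 with each array centred and without NP replicate 2 or P9.5 replicate 1, 2 without P9.5 replicate 3 and 3 without NP replicate 3.

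Immune genes rose in a few places. Of 38 interferon-inducible and GBP genes 6 rose, 0 fell and 32 did not pass, with a median of 0.22. Gbp8, a guanylate-binding protein, was at 5.5, 5.0 and 5.4 in NP and 6.5, 6.5 and 7.4 in P9.5 islets. Gbp7 was at 7.1, 6.8 and 6.9 and at 8.0, 8.2 and 7.7. B2m, the light chain of MHC class I, rose by 1.03, Gbp4 by 0.83, and Gbp9 and Irgm1 by 0.73 each. Gbp4 and Gbp9 lost their calls without P9.5 replicate 1, where 4 of the 38 rose. Among 10 genes of MHC class II presentation Ctss, a protease of antigen processing, rose by 0.73 and Cd74, the invariant chain, fell by 0.77. Of 26 immune cell markers Ctss was the only one called, and the median was 0.00. The count was 0 without NP replicate 2, 2 without P9.5 replicate 2 and 3 without NP replicate 1.

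Some gene groups held no call. Of 7 genes of the regenerating family limma called 0, with 0 past an unadjusted p of 0.05 and 1 higher without P9.5 replicate 2. Reg2 was at 5.5, 7.8 and 8.1 in NP and 9.6, 7.7 and 9.5 in P9.5 islets, and the stages overlapped. Of 9 adipocyte markers and 9 markers of nerve and glia limma called 0, with 3 and 2 of them past an unadjusted p of 0.05. Over all 19938 genes 3704 were higher and 3903 lower at that threshold. Of 18 hypoxia genes 1 rose, Bnip3 at 0.60, and 1 fell, Egln3 at -0.60 (5.56% each), beside 5.85% and 2.19% of all genes. Another probe set of Bnip3, at 0.43, was not called. The call of Bnip3 was lost without NP replicate 3 or P9.5 replicate 1, and that of Egln3 without NP replicate 2 or 3 or P9.5 replicate 2. Of 13 serotonin genes 4 rose and 0 fell, and of the 12 genes of the islet pregnancy signature 11 rose, 3 of them among the 12 largest increases named above. The signature gene that did not pass was Tph1, which is also a serotonin synthesis gene. It was at 4.6, 4.6 and 4.5 in NP and 4.6, 4.5 and 4.7 in P9.5 islets (log2 fold change 0.03). The lists together cover 1181 genes, with 159 of the 1167 genes that rose and 33 of the 437 that fell, so that most called genes lie outside them.

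The same stages were compared in Prlr-/- islets, on 6 arrays of their own, where 10.9% of genes were called. Of the 1167 genes that rose in Prlr+/+ islets 815 also rose in Prlr-/- islets, 69.8% of the Prlr+/+ list and 52.0% of the 1567 genes of the Prlr-/- list. Of the 437 that fell 95 also fell, 21.7% of the Prlr+/+ list and 15.6% of the 610 genes of the Prlr-/- list. A gene called in 1 genotype alone is not thereby shown to differ. The 437 genes had a median log2 fold change of -0.67 in Prlr+/+ and -0.43 in Prlr-/- islets, and 0 passed the interaction test below. For the 1167 genes the medians were 0.73 and 0.70, and 19 passed. The Prlr+/+ medians come from the arrays that chose these genes. In pregnant mice the genotype and the progesterone pellet cannot be told apart.

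Some of the lists were also set side by side by genotype, as examples and without a test. Median log2 fold changes in Prlr+/+ and Prlr-/- islets were 1.53 and 0.07 for the islet pregnancy signature and -0.47 and -1.27 for acinar markers. They were -0.32 and 0.05 for stromal markers and 0.37 and -0.73 for the regenerating family. Other lists lay closer together. Over the nucleolar genes the median log2 fold change was 0.58 in Prlr+/+ and 0.43 in Prlr-/- islets, over the translocon genes 0.47 and 0.62, over the proteasome 0.40 and 0.47 and over cholesterol synthesis 0.55 and 0.65. Among single genes, Nop56 rose by 1.07 in Prlr+/+ and 1.03 in Prlr-/- islets, Psmd6 by 1.03 and 1.20, Idi1 by 1.03 and 1.37 and Pcna by 1.03 in both.

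The difference between the effects of pregnancy in the genotypes was tested as an interaction in the same model, which takes in the Prlr+/+ arrays that chose the largest changes, and 0.105% of all genes passed, 21 in number. That count was 11 without Prlr-/- NP replicate 1 or without Prlr-/- P9.5 replicate 3. Apobec1 was at 6.2 to 6.5 in NP and 6.5 to 6.8 in P9.5 Prlr-/- islets, and its log2 fold changes differed by 2.40 (adjusted p = 0.00203 from limma). Gdf3 was at 5.5 to 6.0 and 5.9 to 6.0 there, with a difference of 2.27 (adjusted p = 0.00756). Socs2 was at 7.3 to 7.5 and 7.4 to 7.6, with a difference of 1.90 (adjusted p = 0.0171), and Rbmx2 differed by 1.53 (adjusted p = 0.00756). For Gpr119 the log2 fold changes were 1.63 and 0.63 (adjusted p = 0.192), for Slc40a1 2.10 and 0.50 (adjusted p = 0.129), and for Sox4 -1.7 and -0.57 (adjusted p = 0.272), differences that did not pass.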

How the data were processed

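Total RNA of isolated islets was hybridised to Affymetrix MoGene 1.0 ST arrays, 1 per sample. The deposited log2 values were made by the authors with robust multichip analysis in aroma.affymetrix, are rounded to 0.1 and run from 1.7 to 14.7. Scanner files were not used here, so background correction and normalization could not be repeated. Gene names come from the platform annotation, with symbols updated through Entrez identifiers for 21698 probe sets. Of 35511 probe sets 21789 have 1 symbol, 1621 several and 12101 none. Each gene is represented by the brightest of its single-symbol probe sets, judged by the mean of all 12 arrays.

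Groups were taken from the labels. A linear model with 4 group means was fitted to all 12 arrays with limma 3.58.1 in R 4.3.3, with empirical Bayes variances (8 residual and 3.61 prior degrees of freedom) and Benjamini-Hochberg adjustment over all probe sets. The standard error had a median of 0.12 over genes. The fit was tested on simulated data with known changes. Called genes have a fold change of at least 1.5 and an adjusted p under 0.05. Named are the 12 largest increases and the 12 largest decreases among called genes whose stages do not overlap, the islet pregnancy signature, up to 6 called members per list and direction, up to 3 members of a list without calls, the islet hormones and the genes that check the array labels. Further genes were named after their values were seen, as examples of members that did not pass. The gene lists and the genes were chosen with earlier results of these data known, and the islet pregnancy signature was defined by the study. Alternatives were other scalings, filters, variance models and array sets, a replicate block, other fold minimums and each array left out.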

Additional observations from a re-analysis of the deposited data

Results flagged for a closer look

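For 11 of the named genes the change with pregnancy differed between the genotypes by the interaction test of limma. The values are the log2 fold change in Prlr+/+ islets minus that in Prlr-/- islets, from a fit that includes the Prlr+/+ arrays by which these genes were chosen. The difference was 3.37 for Cldn8, 2.40 for Apobec1, 2.27 for Gdf3 and 2.23 for Tph2. It was 1.90 for Socs2, 1.77 for Lonrf3, 1.67 for Car8, 1.53 for Rbmx2, 1.43 for Fgl2, 1.40 for Ivd and 1.40 for Neb.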

How the results depend on the processing

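The direction of every named call was the same under all alternatives run: 0 of the called genes turned to a call in the other direction. The counts of 1167 higher and 437 lower genes stayed within 1.5 times under most alternatives, from 947 higher with quantile normalization to 1542 with each array centred on its median. With that centring 256 genes were lower. With no fold minimum 2666 were higher and 1976 lower, and with a minimum of 2 the counts were 158 and 25, which follows from the threshold itself. Leaving out each Prlr+/+ array in turn gave 968 to 1386 higher and 316 to 560 lower genes. The count of genes whose response differed between genotypes was 21 and ran from 11 to 19 with single arrays left out. The cause of these shifts was not tested. Over the gene lists, 1472 of 1710 counts stayed within the same limits, 119 were lower and 119 higher. Over 173 of the named genes 2859 of 3107 values kept their side of the threshold, 243 lost the call and 5 gained it.

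Replicate numbers were not taken as pairs, since deviations of same-numbered Prlr+/+ arrays correlated at 0.101, -0.0565 and 0.156. With the replicate block 1162 genes were higher, 438 lower and 15 differed between genotypes. With 3 arrays a group, values near background and changes close to 1.5-fold are the least certain, and values rounded to 0.1 limit small differences further.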

Other observations

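Genes for small nucleolar RNAs, which guide the chemical modification of ribosomal RNA, held a different share of calls than protein-coding genes. Of 53 with a probe set 13 were higher (24.5%) and 3 were lower (5.66%), against 6.08% and 2.14% of 18556 protein-coding genes. Snord42b rose by 1.37 on the log2 scale and Snora75 by 1.00, while Snord15b fell by 1.17. Many of these RNAs lie in introns of other genes, and signal of the host transcript and of the small RNA cannot be told apart here. Of 297 microRNA genes 5 were higher (1.68%) and 18 were lower (6.06%), and the arrays read the primary transcripts or hairpins and not the mature RNAs. Of 675 long non-coding RNA genes 10 were higher and 7 lower. These classes were looked at after the values were seen and were not tested.

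Among probe sets with several gene symbols 91 of 1621 were higher and 329 lower, and among those with no gene name 594 of 12101 were higher and 662 lower. Gm7982 has 16 further probe sets, all called lower, with log2 fold changes of -1.03 to -1.47. Of all probe sets 486 hold exactly the values of an earlier one, so counts over probe sets repeat some measurements. The median genomic span was 22.5 kb for genes that rose and 25.2 kb for genes that fell, against 17.7 kb over all genes.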
